A study of Homo sapiens with 6 samples.

Results

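The genes described here are 40 standard readouts of cell proliferation, 21 that act in DNA replication and S phase and 19 that act in G2 and mitosis. They were taken by symbol from a given list, by a rule that uses no measured value of theirs, although the list was drawn up with earlier results of these data known. All 40 were found among the 19922 genes that the tables of read counts shared, and all 40 were among the 13629 genes abundant enough to be tested. The question was whether their transcripts differed after knockdown of UBE2A and UBE2B, and whether S phase genes did so otherwise than mitotic ones. UBE2A and UBE2B are the human RAD6 enzymes, paralogous E2 proteins that pass ubiquitin to histone H2B, to the replication clamp PCNA and to other substrates.

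The knockdown group was HEK293A cells treated with siRNAs against UBE2A and UBE2B, 25 uM each and 50 uM in total, for 48 h (3 libraries). The control group was HEK293A cells treated with vehicle for 48 h (3 libraries). HEK293A is a derivative of HEK293, a line of human embryonic kidney cells. All cells had been plated in 60 mm dishes, 10000 per cm2, in medium of 10% serum and 1% antibiotics 18 to 24 h earlier, and the transfection mix held 18.6 ul of the reagent RNAiMate. The labels do not say whether the vehicle contained that reagent, and there was no non-targeting siRNA, so a response to siRNA in general cannot be told apart from one to the loss of the targets. Replicates 1 and 2 of each group came in a first table, and 1 further library of each group, named by group and without a replicate number, in a second. The libraries were of bulk RNA, in which fewer cells of a cycle phase and less RNA per cell cannot be told apart.

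Libraries held 10887217 to 13790963 counted reads in the knockdown group and 11306372 to 14564624 in the control group. Levels are given as CPM, counts per 1e+06 counted reads, with library totals scaled by TMM normalization factors. Before that scaling, 3 reads equalled 0.206 to 0.276 CPM in the 6 libraries, whereas the lowest count of any of the 40 genes was 186. The targets were checked first. UBE2A stood at 51.9, 57.7 and 49.1 CPM in the knockdown libraries, against 99.6, 97.9 and 105 CPM in the control libraries, and UBE2B at 51.9, 55.0 and 46.0 CPM, against 63.1, 64.1 and 61.2 CPM. The knockdown was therefore partial at the level of RNA. The fall of UBE2B lost its call when the second table's knockdown or control library was left out (edgeR's adjusted p = 0.190 and 0.183), and likewise without knockdown replicate 1 (0.103) or control replicate 2 (0.0757). Of 8 HEK293 lineage markers, 6 averaged at least 1 FPKM, the count divided by gene length and library total, with KRT8 highest at 151, while NEFM (0.398) and PAX2 (0.498) lay below; KRT8, KRT18, NEFL and LIN28B fell after knockdown, and VIM (-0.01), NEFM (-0.11), SOX11 (0.15) and PAX2 (0.45, log2 fold changes) were not called. Of 22 markers of blood, endothelium, liver, fibroblasts and muscle, 3 were at 0 in every library and 2 averaged at least 1 FPKM. Their summed level was 14.0 to 16.6 FPKM in the knockdown libraries and 13.1 to 16.4 FPKM in the control libraries.

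Before a cell copies its DNA, the factors CDC6 and CDT1 load the MCM2 to MCM7 helicase onto origins, and in S phase the helicase is switched on with the help of MCM10, CDC45 and the GINS complex. Ribonucleotide reductase and thymidylate synthase supply the deoxynucleotides. Cyclin E starts this program, and cyclin A and cyclin B with CDK1 carry the cell on into mitosis, where kinases such as PLK1 and the Aurora proteins, motor proteins and the kinetochore separate the chromosomes. Transcription of the S phase genes is widely driven by E2F factors, and that of many G2 and mitosis genes by complexes that bind a short element called CHR, often next to CCAAT boxes. An immortal line such as HEK293A, which carries adenoviral E1A, cycles continuously.

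Examples of both elements are shown here because they are the known promoter elements of the classes compared. RefSeq promoters on GRCh38.p14 were at hand for 34 of the 40 genes, with 44 promoters in all; MCM4, MCM5, CCNE2, AURKA, TPX2 and BIRC5 were not matched. Each line below gives 30 bases, 5′ to 3′ on the gene's strand, that lie 40 to 11 bases before the RefSeq start. Capitals mark an E2F match in the first 4 genes and a CHR match in the last 4, on either strand, so that TTCAAA in KIF11 is TTTGAA of the other strand.
CDC45: tcggaggagccgtgaTTTGGCGggagtctt
CDC6: tcgaggccgggcTTTGGCGggaggtgggaa
CDT1: cgcccgCGGGAAATTTGGCGggaaccgcgc
GINS2: ctcgccgtggCGGGAAAacggcggccgcgg
PLK1: ccagcgccgcgTTTGAAttcggggaggagc
CCNB2: gcgacgcggtaTTTGAAtcctggaacaagg
KIF11: ctctgtctctttTTCAAAttgaggcgccga
MKI67: cttcgttttcgTTTGAAttgggcgggcgcg
The windows lie at chr22:19479880-19479909 (CDC45, plus strand), chr17:40287839-40287868 (CDC6, plus), chr16:88803749-88803778 (CDT1, plus) and chr16:85688965-85688994 (GINS2, minus). Those of the mitotic genes lie at chr16:23678849-23678878 (PLK1, plus), chr15:59105106-59105135 (CCNB2, plus), chr10:92593090-92593119 (KIF11, plus) and chr10:128126434-128126463 (MKI67, minus). In the deposited hg38 gene coordinates the CDC6, CDT1 and MKI67 windows are upstream of the gene, and the other windows fall inside the gene or across its first base. The match nearest the start began 25 to 30 bases before it in these 8 genes, and CDT1 had 2 adjacent matches on opposite strands. The 8 genes are examples with a match inside the window shown, so the window bounds these positions. Matches of other genes lay elsewhere, such as the E2F match of MCM3, which began 174 bases before the start.

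Over the 250 bases before each start, with both strands searched, an E2F match (the form TTTGGCG, the form TTTCCCG, the form TTTCGCG or the form TTTGCCG) was present in 11 of 23 promoters of S phase genes (47.8%), in 2 of 21 of G2 and mitosis genes (9.52%) and in 7.33% of all 35116 promoters. A CHR match (the form TTTGAA or the form TTCGAA) was more frequent in the other class, with 10 of 21 promoters of G2 and mitosis genes (47.6%), 2 of 23 of S phase genes (8.70%) and 14.3% of all promoters. CCAAT was present in 17 of 21 G2 and mitosis promoters (81.0%), in 15 of 23 S phase promoters (65.2%) and in 32.0% of all. By gene, 6 of the 10 S phase genes with an E2F match and 7 of the 9 G2 and mitosis genes with a CHR match had one that began within 40 bases of the start. None of these motifs contains another, and a match describes the sequence alone.

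None of the 40 genes passed the test after UBE2A and UBE2B knockdown. With edgeR's quasi-likelihood test, the table of origin as a covariate and a Benjamini-Hochberg adjusted p under 0.05 over all genes, 0 of 40 were called, where 2.47% of all genes were called, 1.83% lower and 0.638% higher. DESeq2 with the same covariate likewise called 0, and limma-voom called 1, RRM2. At an unadjusted p under 0.05 there were 6 of the 40, all in the S phase class, and 14.1% of all genes. MCM10, CDC45, RRM2, FEN1 and CDC6 were lower among these and CDT1 was higher. That count was 10 without knockdown replicate 2 or without control replicate 1, and 3 without either library of the second table. Log2 fold changes of knockdown over control ran between -0.20 for MCM10 and 0.14 for CDT1.

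**Figure D1:**
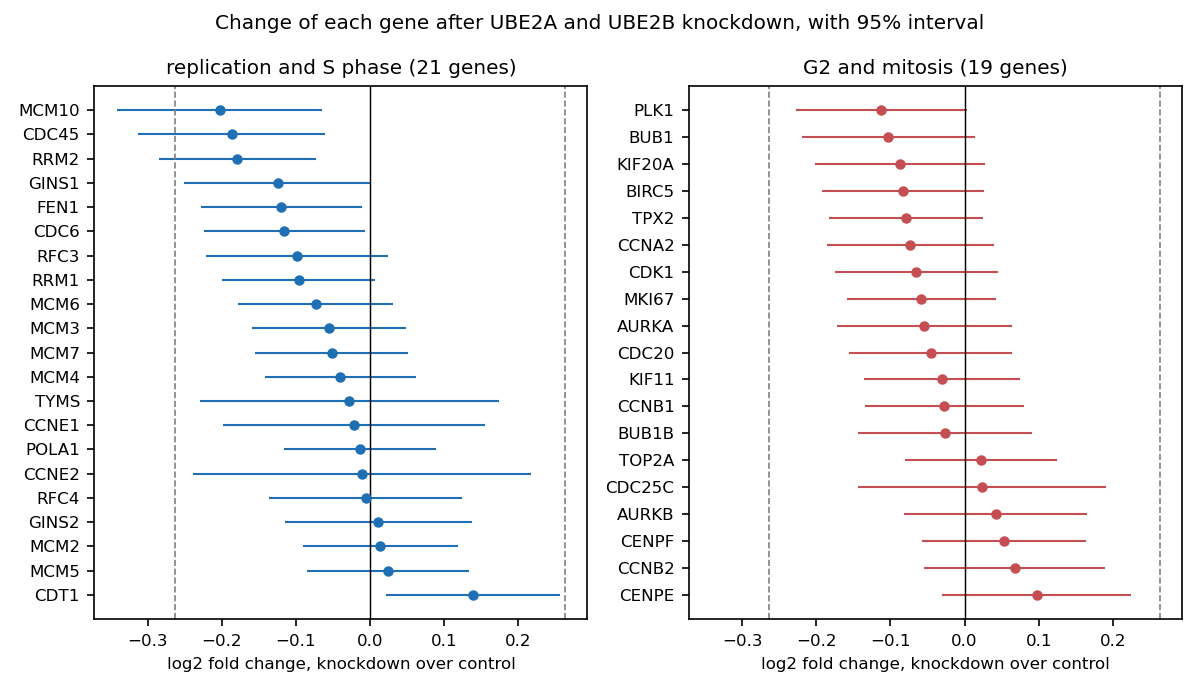
Log2 fold change of knockdown over control (horizontal axis) for each of the 21 replication and S phase genes and the 19 G2 and mitosis genes, with the 95% interval as a bar. MCM10 (-0.20), CDC45 (-0.19) and RRM2 (-0.18) lie farthest to the left, CDT1 (0.14) farthest to the right, and the G2 and mitosis genes lie between -0.11 and 0.10.

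The small folds had narrow intervals in this fit, whose widths rest on a spread that edgeR estimates partly from all genes together. The median standard error of the log2 fold change was 0.06 for the 40 genes and 0.09 for all genes tested. For 37 of the 40 the whole 95% interval lay within a 1.2-fold change in either direction, compared with 45.2% of all genes, and for all 40 it lay within 1.5-fold. Most of the 40 were abundant, whereas all genes include those with few reads, and genes of like level were not compared. MCM10, CDC45 and RRM2 were the 3 whose interval reached further, the lowest bound being 0.789-fold for MCM10. The highest bound was 1.19-fold for CDT1 in the S phase class, and the G2 and mitosis genes were bounded by 0.854-fold (PLK1) and 1.17-fold (CENPE). In DESeq2 with the same covariate 7 genes reached past 1.2-fold, and with the group as the sole term 28 did. With a library left out, 7 (without knockdown replicate 1), 9 (without control replicate 1 or control replicate 2) or 11 genes (without knockdown replicate 2 or either library of the second table) reached past 1.2-fold.

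RRM2, the regulated small subunit of ribonucleotide reductase, came nearest to the threshold. RRM2 (ENSG00000171848, hg38 chromosome 2, 10120698 to 10211725, plus strand) had 347 and 372 CPM in the first table's knockdown libraries and 336 CPM in the second's. The control libraries had 387 and 415 CPM in the first table and 392 CPM in the second. Every knockdown library was below every control library. The means were 351 ± 18.6 CPM in knockdown and 398 ± 15.2 CPM in control cells (SD, n = 3 each), a log2 fold change of -0.18 with a 95% interval of -0.29 to -0.07. edgeR's adjusted p was 0.0562, just above the threshold, and it spanned 0.0156 to 1.00 over 17 alternative settings. RRM2 passed in 6 of those, namely without knockdown replicate 2 (0.0337), without control replicate 1 (0.0156), with no filter on low counts (0.0326), with a replicate block (0.0361), and in limma-voom (0.0467) and limma-trend (0.0491). Without knockdown replicate 1 it was 0.301, without control replicate 2 it was 0.396, and without either library of the second table it was at least 0.312. RRM1, the large subunit of the same enzyme, had 418, 416 and 354 CPM in knockdown libraries and 430.4, 460.3 and 379 CPM in control libraries, lower in knockdown within each table, with a log2 fold change of -0.10 and an adjusted p of 0.398. TYMS, thymidylate synthase, lay at -0.03, with 21.5, 21.4 and 26.8 CPM in knockdown and 21.2, 20.8 and 29.5 CPM in control libraries. Of the exon bases of TYMS, 39.1% are shared with ENOSF1 on the opposite strand, and the strand setting of the counting is not given in the sources used here, so reads of these genes may not be told apart.

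Of the 4 factors that turn the loaded helicase into a moving one, 3 had negative values and 0 were called. CDC45, an essential subunit of the active helicase (ENSG00000093009, chromosome 22, 19479457 to 19520612, plus strand), had 85.9, 93.6 and 82.0 CPM in knockdown libraries, against 96.2, 103 and 98.1 CPM in control libraries. The groups did not overlap, and the means of 87.2 ± 5.93 CPM in knockdown and 99.2 ± 3.75 CPM in control cells (SD, n = 3 each) gave a log2 fold change of -0.19 (95% interval -0.31 to -0.06) and, from edgeR, an adjusted p of 0.113. MCM10, which binds the helicase as it is switched on (ENSG00000065328, chromosome 10, 13161558 to 13211110, plus strand), had 61.9 and 61.6 CPM in the first table's knockdown libraries, against 68.5 and 72.3 CPM in its control libraries. In the second table MCM10 had 50.1 CPM in the knockdown and 58.9 CPM in the control library. The knockdown library was lower within each table, while the groups overlapped across the tables because both second-table libraries were low. Its log2 fold change was -0.20 (95% interval -0.34 to -0.06; edgeR's adjusted p = 0.119). Of the GINS subunits, GINS1 had -0.12 (adjusted p = 0.364) and GINS2 had 0.01 (adjusted p = 0.960).

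CDT1 had a value of opposite sign to that of CDC6, its partner in loading the helicase. CDT1 (ENSG00000167513, chromosome 16, 88803789 to 88809258, plus strand) had 92.6 and 93.6 CPM in the first table's knockdown libraries, against 83.7 and 88.3 CPM in its control libraries. In the second table it had 168 CPM in the knockdown and 148 CPM in the control library. The knockdown libraries were higher within each table, yet the step between the tables was several times the difference between the groups. The log2 fold change was 0.14 (95% interval 0.02 to 0.26), and edgeR's adjusted p was 0.251. CDC6 had 216, 232 and 181 CPM in knockdown libraries and 235, 242 and 204 CPM in control libraries, a log2 fold change of -0.12 with an adjusted p of 0.320. Neither CDT1 nor CDC6 was called, and the difference between the genes was not tested.

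The MCM2 to MCM7 helicase itself had values near 0. Log2 fold changes of its 6 subunits lay between -0.07 (MCM6) and 0.02 (MCM5), and each 95% interval lay within 0.884-fold and 1.10-fold. MCM2, a common marker of cells licensed to divide, had 257, 270.0 and 308 CPM in knockdown libraries and 259, 264 and 303 CPM in control libraries (log2 fold change 0.01, edgeR's adjusted p = 0.938). MCM7, the subunit with the highest level per length, at 112 ± 9.65 FPKM in knockdown and 115 ± 9.70 FPKM in control cells (SD, n = 3 each), had -0.05 (adjusted p = 0.717). MCM6 had 253, 252 and 247 CPM in knockdown libraries, all just below the 264, 264 and 263 CPM of the control libraries. It was the third of the 40 genes, with RRM2 and CDC45, whose groups did not overlap, where 7.7% of all genes did not overlap; its log2 fold change of -0.07 had an adjusted p of 0.569. MCM3 (-0.06), MCM4 (-0.04) and MCM5 (0.02) overlapped.

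The enzymes of DNA synthesis had values at or below 0. FEN1, the nuclease that trims flaps from Okazaki fragments, had 235, 248 and 211 CPM in knockdown libraries and 249, 260.3 and 244 CPM in control libraries. Its knockdown libraries were lower within each table, and the log2 fold change was -0.12 (edgeR's adjusted p = 0.296). POLA1, the catalytic subunit of polymerase alpha, had -0.01, and the clamp loader subunits RFC3 and RFC4 had -0.10 and -0.01. The cyclin E genes stood apart in level. CCNE1 had 31.4, 29.6 and 39.5 CPM in knockdown libraries and 32.3, 28.5 and 41.5 CPM in control libraries, with overlap, and CCNE2 was the lowest of the 40 genes at 4.29 ± 0.447 FPKM in knockdown and 4.25 ± 0.635 FPKM in control cells (SD, n = 3 each). Their log2 fold changes were -0.02 and -0.01, and the sign changed for CCNE1 without control replicate 1 (0.02) and for CCNE2 without knockdown replicate 1 (0.05) or control replicate 1 (0.09), so no direction can be given. Of the exon bases of CCNE2, 37.0% are shared with INTS8 on the opposite strand.

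**Figure D2:**
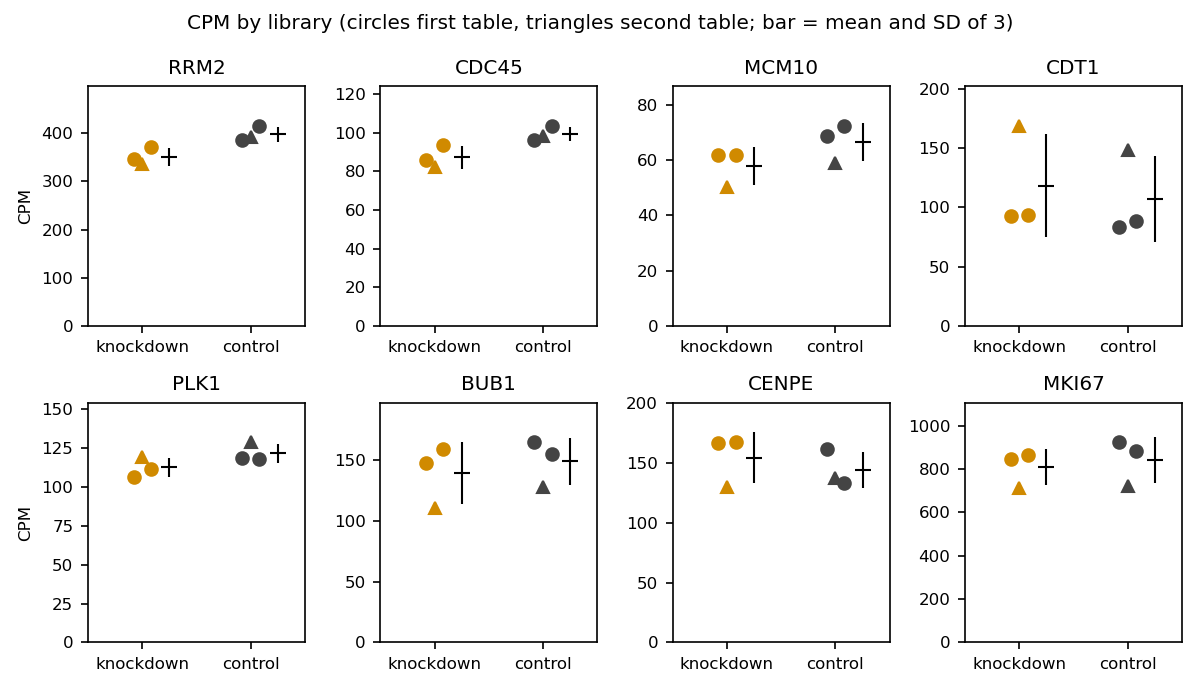
CPM (vertical axis, from 0) in each library for 4 S phase genes (RRM2, CDC45, MCM10, CDT1) and 4 mitotic genes (PLK1, BUB1, CENPE, MKI67), knockdown left of control, with circles for the first table, triangles for the second and a bar for the mean and SD of 3. RRM2 and CDC45 separate the groups (RRM2 at most 372 CPM in knockdown and at least 387 CPM in control libraries), and the second-table libraries of CDT1, at 168 and 148 CPM, stand far above the rest.

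Cyclins and the kinase of mitotic entry did not differ detectably. CCNB1, the main mitotic cyclin, had 299.6, 309.8 and 242 CPM in knockdown libraries and 294, 304 and 267 CPM in control libraries, with a log2 fold change of -0.03 (edgeR's adjusted p = 0.880), which was 0.03 in the first table alone. CDK1, its kinase, had 285, 277 and 225 CPM in knockdown and 271, 304 and 247 CPM in control libraries, a log2 fold change of -0.06 (adjusted p = 0.649). In both genes the groups overlapped, and the second table gave the lowest library of each group. CCNA2, encoding cyclin A, had -0.07, CCNB2 had 0.07, and the phosphatase CDC25C, which activates CDK1, had 0.02 at 11.8 ± 0.245 FPKM in knockdown and 11.5 ± 0.870 FPKM in control cells (SD, n = 3 each), the lowest level per length of the G2 and mitosis class.

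Among the mitotic kinases the lowest value was that of PLK1. PLK1 (ENSG00000166851, chromosome 16, 23677656 to 23690367, plus strand), which acts in mitotic entry, spindle formation and cytokinesis, had 107, 112 and 119 CPM in knockdown libraries and 118, 118 and 129 CPM in control libraries. It was lower in knockdown within each table by nearly the same amount (-0.11 in each), and overlapped across them. The means were 113 ± 6.30 CPM in knockdown and 122 ± 6.05 CPM in control cells (SD, n = 3 each), the log2 fold change was -0.11 (95% interval -0.23 to 0.00), and edgeR's adjusted p was 0.374. BUB1, a kinase of the spindle checkpoint, had 148, 159 and 110.4 CPM in knockdown libraries and 165, 155 and 128 CPM in control libraries, overlapping, with -0.10 (adjusted p = 0.430). BUB1B, its checkpoint partner, had -0.03. AURKA, of the spindle poles, and AURKB, of the chromosomal passenger complex, had -0.05 and 0.04, both without a common direction in the tables.

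The motor, kinetochore and spindle genes held values of both signs. CENPE, a motor that brings chromosomes to the spindle equator, had the highest value of the class, 0.10, from 166, 167 and 130.1 CPM in knockdown libraries and 161, 133 and 138 CPM in control libraries. The knockdown libraries of CENPE were higher in the first table and lower in the second, edgeR's adjusted p was 0.520, and without control replicate 2, at 133 CPM, the log2 fold change was -0.00. KIF20A, a kinesin of cytokinesis, had 143, 148 and 147 CPM in knockdown and 157, 143 and 165 CPM in control libraries, a log2 fold change of -0.09 (adjusted p = 0.520) with overlap. BIRC5, encoding survivin of the passenger complex, and TPX2, which activates AURKA, had -0.08 each, CDC20, an activator of the anaphase-promoting complex, had -0.05, KIF11, the motor that separates spindle poles, had -0.03, and CENPF, a large kinetochore protein, had 0.05.

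The markers of proliferation most used in tissue, TOP2A and MKI67, were not called either. TOP2A, the topoisomerase that untangles sister chromatids, was the most abundant of the 40 per length, at 149 ± 19.02 FPKM in knockdown and 144 ± 9.73 FPKM in control cells (SD, n = 3 each), above 99.0% of the genes tested. It had 1024, 1005 and 798 CPM in knockdown libraries and 976, 943 and 853 CPM in control libraries. The first table's knockdown libraries were above and the second's below their controls, for a log2 fold change of 0.02 (95% interval -0.08 to 0.13; edgeR's adjusted p = 0.899). MKI67, encoding the Ki-67 protein of cycling cells, had 845, 864 and 712 CPM in knockdown libraries and 922, 882 and 720.5 CPM in control libraries. MKI67 was slightly lower in knockdown within each table, overlapped across them, and had a log2 fold change of -0.06 (95% interval -0.16 to 0.04; adjusted p = 0.657).

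Set side by side, the S phase and the mitotic class had like medians. The median log2 fold change was -0.05 over the 21 S phase genes, -0.05 over the 19 G2 and mitosis genes and 0.00 over all genes tested. The values were negative for 17 of 21 and 13 of 19 of them, together 30 of 40, where 49.4% of all genes were negative; with upper quartile scaling, which moved the median of all genes to 0.02, it was 14 of 21 and 13 of 19, and in the first table alone or without either library of the second table it was 13 of 21 and 11 of 19. No test was made of these counts, because the genes were chosen with results of these data known and share their libraries. The difference of the class medians, S phase minus G2 and mitosis, was -0.01, and it was 0.02 without knockdown replicate 2 and -0.04 without control replicate 2, so its direction rests on single libraries. The classes differed in the spread of their values, the S phase genes between -0.20 and 0.14 and the G2 and mitosis genes between -0.11 and 0.10; this spread was not tested. Within the S phase class the 10 genes with an E2F match had a median of -0.05 and the 8 without one -0.11, and in the G2 and mitosis class the 9 genes with a CHR match and the 7 without both had -0.03. These splits rest on exact matches to the forms searched within 250 bases, so a gene without a match may still carry the element. They were not tested.

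Averaged within each library, the S phase class was slightly lower in each knockdown library, a description with no test. Its mean log2 CPM was 7.20, 7.23 and 7.22 in the knockdown libraries, against 7.25, 7.27 and 7.30 in the control libraries. The groups did not overlap, with a difference of -0.06 after the table was taken into account and a residual SD of 0.02. The G2 and mitosis class had 7.67, 7.71 and 7.48 in the knockdown libraries and 7.69, 7.69 and 7.56 in the control libraries. Here the groups overlapped, and the difference was -0.03 with a residual SD of 0.03, made up of -0.08 within the second table and -0.00 within the first. S phase minus G2 and mitosis was -0.47, -0.48 and -0.26 in knockdown and -0.44, -0.42 and -0.26 in control libraries. For the G2 and mitosis mean and for the difference of the classes, the tables differed by more than the groups did (second minus first table -0.17 and 0.19), while for the S phase mean the tables differed by 0.02, less than the groups. That small value averages over opposite differences, since 6 of the 21 S phase genes were called higher and 6 lower in the second table. The 40 genes together made up 0.897% to 0.990% of the TMM-scaled library totals in knockdown libraries and 0.947% to 1.01% in control libraries. These percentages refer to the scaled totals and are not shares of the counted reads.

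**Figure D3:**
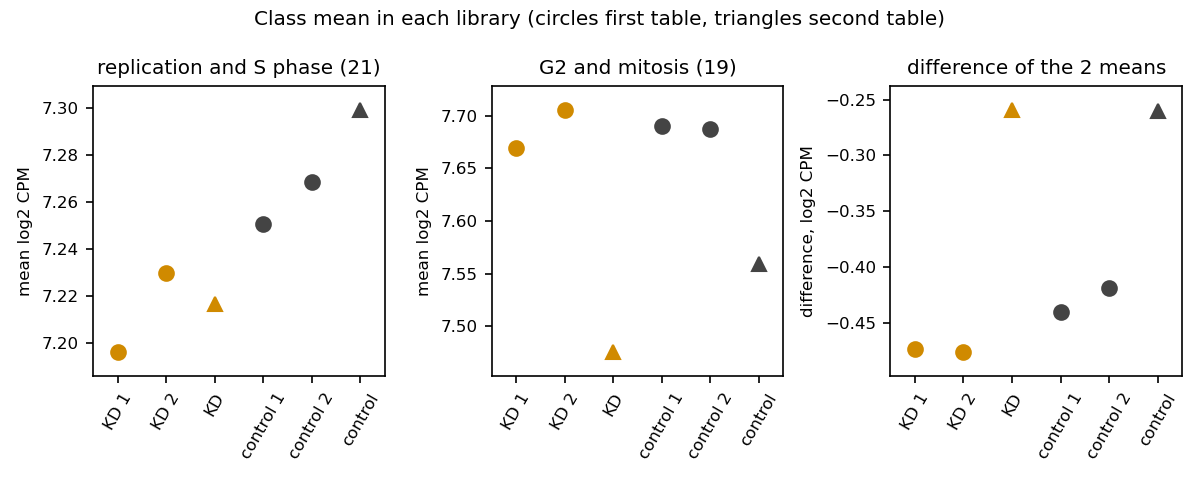
Mean log2 CPM of the 21 S phase genes, of the 19 G2 and mitosis genes, and their difference (vertical axes), in each of the 6 libraries, knockdown left of control, circles for the first and triangles for the second table. The S phase mean is 7.20 to 7.23 in knockdown and 7.25 to 7.30 in control libraries, while the G2 and mitosis mean is lowest in the second table, at 7.48 in its knockdown and 7.56 in its control library.

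Within-table differences showed how far each table carried the small negative values. Of the 40 genes, 21 were lower in knockdown in both tables, 4 were higher in both and 15 had opposite signs. Over all genes 29.4% were lower in both, 29.1% higher in both and 41.4% of opposite sign. Opposite signs were found for 6 of 21 S phase genes and for 9 of 19 G2 and mitosis genes. Second table before first, RRM2 had -0.22 and -0.16, CDC45 had -0.26 and -0.15, MCM10 had -0.24 and -0.19, and CDT1 had 0.18 and 0.11 (log2 CPM, knockdown minus control). CENPE had -0.08 and 0.19, AURKB -0.12 and 0.12, and TOP2A -0.10 and 0.08 in the same order. The test of the difference itself, the group by table interaction in edgeR, called 0 of the 40 and 0.00734% of all genes. The lowest unadjusted p of the interaction among the 40 was 0.0530, that of CENPE, so 0 of the 40 had an unadjusted p under 0.05, where 4.61% of all genes did; DESeq2 also called 0 of the 40. The second table has 1 library per group, whose spread is taken to be that of the others.

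**Figure D4:**
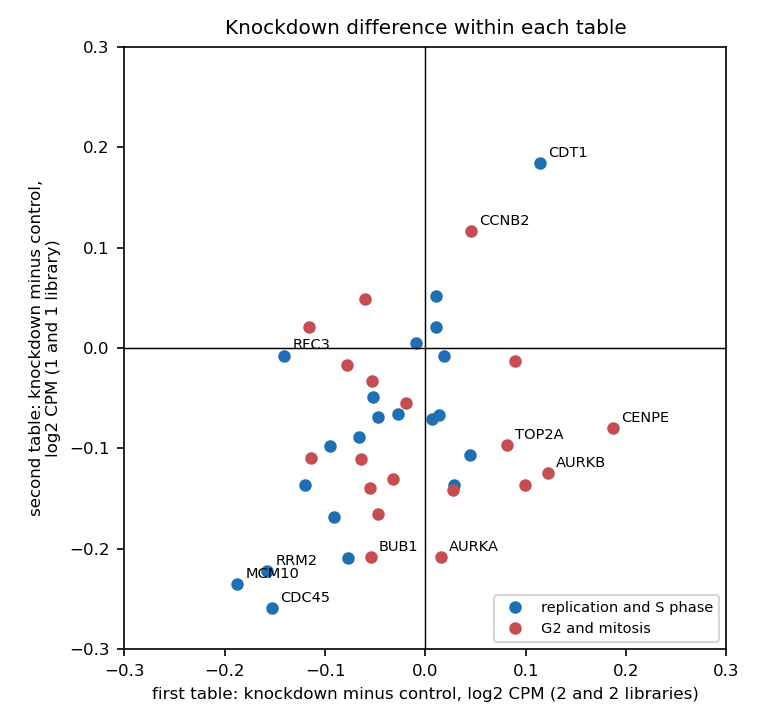
Knockdown minus control in log2 CPM in the first table (horizontal axis, 2 against 2 libraries) and in the second (vertical axis, 1 against 1) for each of the 40 genes, by class. RRM2, CDC45 and MCM10 lie in the lower left, CDT1 in the upper right, and CENPE, AURKB and TOP2A are positive in the first table and negative in the second.

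The tables separated these genes far more than the knockdown did. Second over first table, with the group as covariate, edgeR called 6 of the 40 higher, where 18.5% of all genes were higher, and 19 of the 40 lower, where 19.7% of all genes were lower. All 6 higher genes were S phase genes. CDT1 led with 1.77-fold (log2 0.82, edgeR's adjusted p = 2.45e-14), followed by CCNE1 (0.41), TYMS (0.41), MCM5 (0.37), MCM2 (0.22) and MCM7 (0.18). The lower genes were 13 of the 19 G2 and mitosis genes and 6 S phase genes. BUB1 (-0.40), BUB1B (-0.39), AURKA (-0.33), MKI67 (-0.29), CDK1 (-0.27) and TOP2A (-0.26) were among the mitotic ones, and GINS1 (-0.33), RFC3 (-0.30), MCM10 (-0.28), CDC6 (-0.26), RRM1 (-0.23) and POLA1 (-0.15) were the S phase ones. The medians were -0.05 for the S phase class, -0.23 for the G2 and mitosis class and -0.00 for all genes.

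The second table's libraries were shallower and its gene models differed, with another length for 2734 of the shared genes, CENPF, CDC25C and CDK1 among the 40; of the 37 genes of equal length, 6 were higher and 18 lower. The number called fell to 13 when the second table's knockdown library was left out and to 15 without its control library, each of which leaves a single library for that table. Nothing in the labels says how the libraries of the tables differed in culture or sequencing, so a batch and a difference of the cells cannot be told apart.

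**Figure D5:**
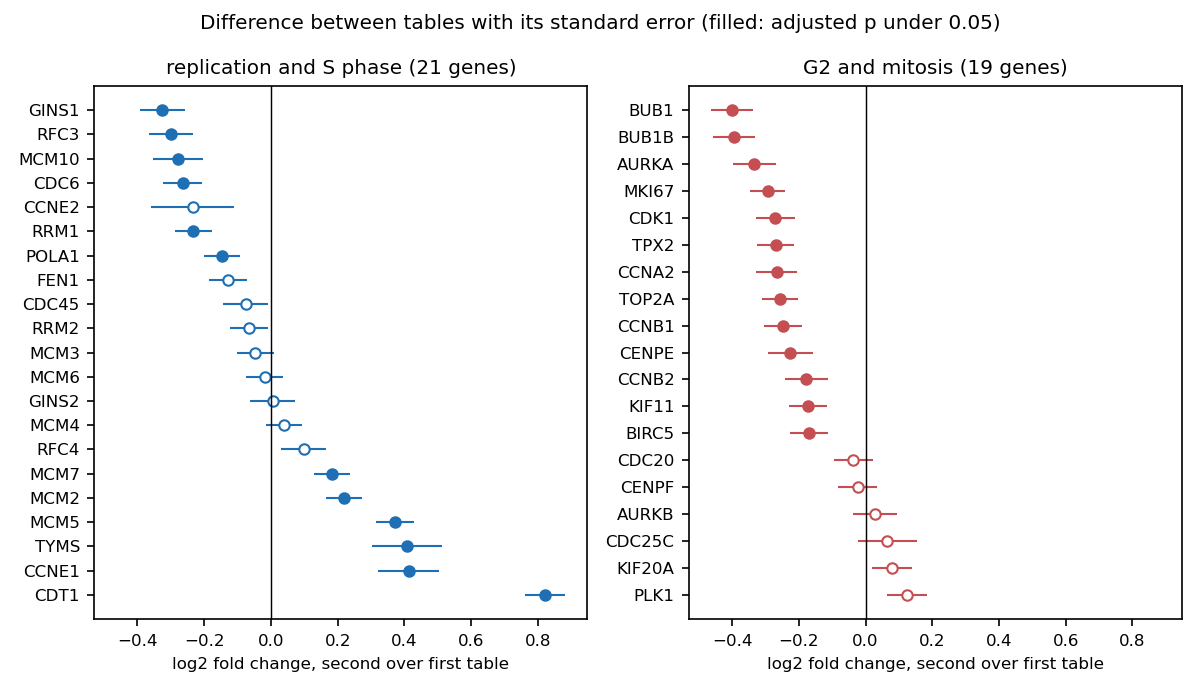
Log2 fold change of the second over the first table (horizontal axis) for each gene by class, with its standard error, filled where edgeR's adjusted p was under 0.05. CDT1 (0.82) is alone at the right, and 13 of 19 G2 and mitosis genes are filled to the left of 0.

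Further cell cycle genes, 203 in 9 lists that exclude the 40, gave few calls after knockdown. Of the 202 tested, 0 were higher and 3 lower, 25 had an unadjusted p under 0.05 and 137 were negative, with a median log2 fold change of -0.03. Over all genes tested 0.638% were higher, 1.83% lower, 14.1% at an unadjusted p under 0.05 and 49.4% negative, so the calls lay near the share of all genes. KIF4A, a chromosome-bound kinesin that shortens the central spindle, was lowest among the 3. It had 109, 113 and 99.1 CPM in knockdown libraries, all below the 130.4, 137 and 132 CPM of the control libraries, and its log2 fold change was -0.32 (edgeR's adjusted p = 7.76e-04), which held in the fits without a first-table library and was lost without the second table's knockdown (0.0570) or control library (0.0504). PKMYT1, a kinase that inhibits CDK1, had 99.4, 107 and 111 CPM in knockdown and 118, 122 and 125 CPM in control libraries, without overlap. Its log2 fold change was -0.20 with an adjusted p of 0.0472, and the call was lost with 5 of the 6 libraries left out in turn, the exception being knockdown replicate 2. The PKMYT1 call was also lost in DESeq2 (0.104), in limma-trend (0.052) and in edgeR with upper quartile factors (0.0769). It was lost as well with a minimum of 5 CPM on average (0.052) and in the first table alone (0.147). UHRF1, which carries DNA methylation through replication, had 249, 280.4 and 325 CPM in knockdown and 304.5, 310.6 and 362 CPM in control libraries. It was lower within each table and overlapped across them, with a log2 fold change of -0.20 and an adjusted p of 0.0363, lost without knockdown replicate 1 (0.362), control replicate 2 (0.270) or the second table's knockdown (0.135) or control library (0.122). The UHRF1 call was also lost in edgeR with upper quartile factors (0.0611) and in the first table alone (0.121).

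By list, and to be read against the 2.47% of all genes called, 0 of 40 other replication factors passed, with a median of -0.04 and 27 negative. Of 15 genes of nucleotide supply, a broad function that RRM1, RRM2 and TYMS also serve, 0 passed, 14 were negative and the median was -0.09. Within the tables, 8 of these 15 were negative in both and 7 had opposite signs. The spindle, kinesin and cytokinesis list had 1 lower of 23 (KIF4A), the checkpoint kinase and CDC25 list 1 lower of 16 (PKMYT1) and the S phase scoring markers 1 lower of 30 (UHRF1). Negative values in these lists numbered 15, 11 and 23, in that order. Kinetochore genes (25), condensin, cohesin and anaphase-promoting complex genes (26), E2F, DREAM and FOXM1 regulators (20) and G2/M scoring markers (39) had 0 called, with medians of -0.03, -0.03, 0.04 and -0.03. In the same order, 19, 16, 8 and 29 were negative. Over these lists the number called was 5 without knockdown replicate 2 or without control replicate 1, 1 without knockdown replicate 1 or control replicate 2, and 0 without either library of the second table.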

How the data were processed

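Read counts of 6 RNA libraries were deposited by the authors as whole, unnormalized reads per gene, in 2 tables that also hold FPKM. HISAT2, HTSeq and hg38 are named per the submitters' processing notes, without versions; the strand setting has no statement in the sources used here. FPKM, as deposited, equalled count over gene length and library total, and were used for levels alone. The 19922 shared genes were joined by Ensembl identifier, with symbols for 19875 of them from the reference name table. The second table's columns name the group, one as siRAD6, and carry no replicate number; 0 further per-sample columns were left unused.

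The test was the quasi-likelihood test of edgeR 4.0.16, run under R 4.3.3 (normalization by TMM, minimum counts by filterByExpr per group, group and table as terms, Benjamini-Hochberg adjustment over 13629 genes, threshold 0.05). CPM values use TMM factors; class means are of log2 CPM with a prior count of 2. The fit was tested on simulated data, where it missed part of the smallest differences put in and a somewhat larger share of its calls was false than the threshold allows. Nothing says that replicates came from separate cultures, so p-values measure the spread between libraries, which may be technical.

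The 40 genes, the lists and the tests were chosen with earlier results of these data known. Named were, per class, the 4 largest changes, the 2 highest and the lowest FPKM, 8 standard proliferation genes (MCM2, CCNE1, CDK1, CCNB1, TOP2A, MKI67, PLK1, AURKA), any member called, up to 3 called genes per other list, and the targets; other genes were named after their values were seen. Alternatives were RLE and upper quartile factors, a minimum of 1 count in place of the filter, or 5 CPM on average, the group as sole term, a replicate block, DESeq2 1.42.0, limma 3.58.1 (voom and trend), the first table alone, genes of equal length and each library left out; the second table alone was added after seeing the data.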

Additional observations from a re-analysis of the deposited data

How the results depend on the processing

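The count of called genes over all genes, 336, was 0 with the group as the sole term, 186 in DESeq2 and 154 in the first table alone, and ran from 98 to 420 with a library left out. With a replicate block of 3 pairs it was 363. The replicate numbers were not taken as pairing the libraries, since replicate 1 minus 2 correlated across genes at 0.01 between the groups. S phase genes called, 0, became 1 (RRM2) with no filter, the replicate block, limma-voom or limma-trend, and 0 to 1 with a library left out; G2 and mitosis genes called stayed at 0 in each of these. The S phase median was -0.0752 to -0.0453 with a library left out. The class difference was -0.0358 to 0.0191, and 0.0390 in the second table alone, where the G2 and mitosis median was -0.109. Genes reaching past 1.2-fold, 3, were 28 with the group alone, 7 in DESeq2, 11 in the first table and 7 to 11 with a library left out. Genes called between tables, 25, were 13 to 26. The other lists' 3 became 1 with upper quartile factors or the first table alone, 0 with the group alone and 0 to 5 with a library left out. Signs turned in these ranges of the log2 fold change over the left-out libraries: CCNE2 -0.0932 to 0.0892 (upper quartile factors 0.00507), CENPE -0.00081 to 0.182, TOP2A -0.00503 to 0.0841, CDC25C -0.0115 to 0.103, MCM2 -0.0119 to 0.0328, CCNE1 -0.0732 to 0.0231, CCNB1 -0.0633 to 0.0303 and AURKA -0.111 to 0.0188. With the first table alone CCNE1 had 0.00335, CCNB1 0.0270 and AURKA 0.0154. The cause was not tested. CCNE2, TYMS and CCNE1 had the lowest mean CPM of the 40 genes and the largest standard errors (0.11, 0.10 and 0.09); what sets these errors was not tested.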
